A study of Mus musculus with 106 samples.

Results

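The regions described here are those at which chromatin accessibility was called higher with GW4064 than with its vehicle in the liver of WT mice. GW4064 is a synthetic agonist of the bile acid receptor FXR (gene Nr1h4). Accessibility was measured by ATAC-seq, in which an enzyme cuts DNA that is not packed into nucleosomes. The authors called peaks in 3 GW4064 livers against 3 vehicle livers and deposited 1 list for the 6 samples together, and all 60528 regions of that list were taken. They are part of 266795 regions in 4 such lists. The other 3 lists hold 82561 regions gained with GW4064 in Foxa2-KO liver (3 GW4064 and 3 vehicle livers), 62838 gained with GW3965 in WT liver and 60868 gained with T09 in WT liver (2 ligand and 2 vehicle livers each). GW3965 and T09 are agonists of the oxysterol receptor LXR.

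The mice of the ATAC, FXR and Foxa2 samples were 8 to 12 weeks old and received ligand or vehicle 4 h before harvest. Those of the LXR and PPAR ChIP samples, used below only to mark stretches with peaks of all 4 antibodies, were 3 months old. The sample labels give the route as oral gavage, whereas the series text speaks of an injection. The ATAC samples are labelled WT or Foxa2-KO, and labels of other assays of the series give the KO as Foxa2loxP/loxP;Alfp.Cre, a deletion of the pioneer factor Foxa2 by a Cre active in liver. Nuclei came from frozen pieces of whole liver, so every liver cell type was in the sample, and fewer cells of a type and less signal per cell cannot be told apart. The list of WT liver with GW4064 gives the position of each region and no fold, q-value or value per sample. The spread between the 3 livers of a group therefore cannot be given, no test between groups was possible, and regions that lost accessibility are not in the list. All values below are descriptions of 1 list.

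FXR is a nuclear receptor that binds DNA mostly as a dimer with RXR, classically at an inverted pair of AGGTCA-like motifs. In hepatocytes, bile acids that bind it raise the export of bile salts and lower their synthesis, in part through the repressor Nr0b2 (SHP). Foxa2 is a forkhead factor that can bind nucleosomal DNA and is expressed in hepatocytes throughout life. Highly transcribed genes can be accessible along much of their body.

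A promoter window here is the stretch from 250 bases before to 50 bases after a RefSeq start site (GRCm38.p6, the assembly named mm10 in the labels). Of 32851 windows, 1468 (4.47%) lay wholly inside a region gained with GW4064 in WT liver. The 6 below are shown because their genes carry the results that follow: 2 FXR targets, 2 of the most covered P450 genes, the most covered glutathione transferase and a gene of histidine breakdown. Each lay wholly inside a gained region. Capitals mark the receptor motifs AGGTCA and AGTTCA, the forkhead motif TGTTTAC, the AP-1 motif TGACTCA and the antioxidant response motif TGACNNNGC, searched on both strands.

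Osgin1: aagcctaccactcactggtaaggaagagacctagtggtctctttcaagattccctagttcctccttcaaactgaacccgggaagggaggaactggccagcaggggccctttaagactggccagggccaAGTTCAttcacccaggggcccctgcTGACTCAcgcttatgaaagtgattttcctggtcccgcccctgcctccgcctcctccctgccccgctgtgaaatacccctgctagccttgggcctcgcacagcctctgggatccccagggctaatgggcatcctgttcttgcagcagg
Abcb11: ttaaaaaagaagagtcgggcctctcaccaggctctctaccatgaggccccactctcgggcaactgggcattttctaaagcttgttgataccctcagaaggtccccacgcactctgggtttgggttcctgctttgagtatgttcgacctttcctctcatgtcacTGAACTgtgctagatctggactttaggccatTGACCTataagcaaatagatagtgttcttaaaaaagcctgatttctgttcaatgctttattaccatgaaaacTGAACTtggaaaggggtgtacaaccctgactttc
Cyp3a11: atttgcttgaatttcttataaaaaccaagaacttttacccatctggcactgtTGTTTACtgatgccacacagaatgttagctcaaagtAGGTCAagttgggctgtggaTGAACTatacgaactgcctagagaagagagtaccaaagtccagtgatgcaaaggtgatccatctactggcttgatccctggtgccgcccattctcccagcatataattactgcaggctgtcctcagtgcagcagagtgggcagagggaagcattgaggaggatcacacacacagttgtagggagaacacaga
Gstm1: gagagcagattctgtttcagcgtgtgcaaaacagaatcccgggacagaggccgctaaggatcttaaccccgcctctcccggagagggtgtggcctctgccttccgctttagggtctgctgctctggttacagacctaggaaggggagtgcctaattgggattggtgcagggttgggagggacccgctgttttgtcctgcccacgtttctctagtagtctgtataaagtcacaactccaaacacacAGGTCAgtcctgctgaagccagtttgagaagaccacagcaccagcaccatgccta
Cyp2c29: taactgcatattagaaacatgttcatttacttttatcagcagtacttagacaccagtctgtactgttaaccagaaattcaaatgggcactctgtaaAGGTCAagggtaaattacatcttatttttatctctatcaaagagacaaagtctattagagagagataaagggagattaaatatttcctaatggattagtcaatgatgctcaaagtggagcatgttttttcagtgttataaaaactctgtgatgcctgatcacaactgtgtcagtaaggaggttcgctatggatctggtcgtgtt
Ftcd: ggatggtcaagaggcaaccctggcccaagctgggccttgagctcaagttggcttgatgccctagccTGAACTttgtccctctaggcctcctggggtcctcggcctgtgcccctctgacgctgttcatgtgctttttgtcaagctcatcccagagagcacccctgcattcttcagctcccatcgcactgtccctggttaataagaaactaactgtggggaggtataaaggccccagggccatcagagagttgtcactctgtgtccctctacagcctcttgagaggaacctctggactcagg

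The Osgin1 window (chr8:119436897-119437196, plus strand) holds an AGTTCA motif and an AP-1 motif. It lies inside the annotated gene body, downstream of the body's first base. An FXR peak of WT liver with GW4064 (chr8:119436972-119437121) lay wholly inside this window. The Abcb11 window (chr2:69342567-69342866, minus strand) holds 1 AGGTCA and 2 AGTTCA motifs, all on the strand opposite to the gene. An FXR peak (chr2:69342574-69342799) and a Foxa2 peak (chr2:69342539-69342701) overlapped it, and the gained region around it was 3051 bp wide. The Cyp3a11 window (chr5:145879805-145880104, minus strand) holds 1 AGGTCA, 1 AGTTCA and 1 forkhead motif, with no FXR or Foxa2 peak in the window. The Gstm1 window (chr3:108017769-108018068, minus strand) and the Cyp2c29 window (chr19:39286835-39287134, plus strand) hold 1 AGGTCA each. The Ftcd window (chr10:76575398-76575697, plus strand) holds 1 AGTTCA.

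These letters are common in promoters. AGGTCA was in 13% of the windows wholly inside gained regions and in 16.3% of all windows. AGTTCA was in 7.9% of the covered windows and 14% of all, TGTTTAC in 2.52% and 3.65%, TGACTCA in 4.77% and 5.2%, and TGACNNNGC in 13.3% and 12.4%. Covered windows were richer in G and C than all windows, with a median GC content of 63.3% against 52.7%. They also had a median observed-to-expected ratio of CpG dinucleotides of 0.735, against 0.384 in all windows. FXR peaks of WT liver with GW4064 met 1.84% of the covered windows and 0.584% of all windows, and Foxa2 peaks met 4.22% and 2.42%.

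Few of the regions were wide, and the wide ones held much of the gained sequence. The 60528 regions covered 20.75 Mb, or 0.762% of the chromosomes up to the last gene or region, and none overlapped another. The median width was 150 bp and the widest region had 21303 bp. Regions of 1000 bp or more numbered 4699, 7.76% of the regions, and held 43.5% of the gained bases. In Foxa2-KO liver with GW4064, such regions made up 3.35% of the regions and 27.6% of the bases. The corresponding shares of bases were 47.9% with GW3965 and 38.5% with T09. At the other end, 6015 regions of WT liver with GW4064 were 1 to 20 bp wide and held 0.248% of the bases.

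**Figure D1:**
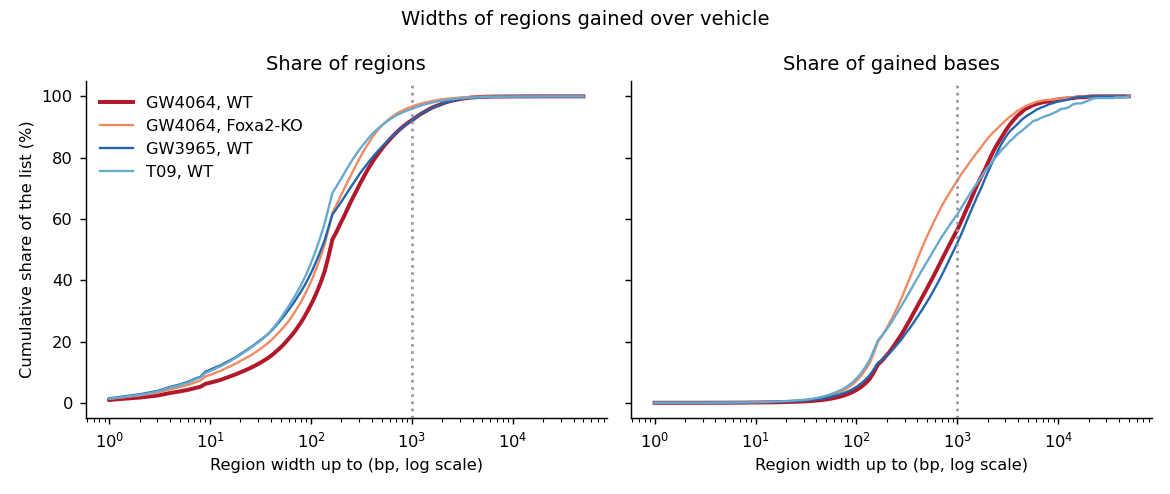
Cumulative share of regions (left) and of gained bases (right) by region width on a log scale, for the 4 lists of regions gained over vehicle; each line is 1 list, and the dotted line marks 1000 bp. In WT liver with GW4064, 7.76% of the regions lie right of that line and hold 43.5% of the bases.

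Width went with the order of the entries, which the file does not explain. With the list cut into 10 equal parts, the median width was 496 bp in the first and 113 bp in the last. The 3 other lists run in order of their q-value, the adjusted p-value of each region, up to 0.05, and the widest regions also stood in their first parts. Wide regions in those lists had small folds. In the authors' deposited table for Foxa2-KO liver, the median fold over vehicle was 1.12 for regions of 5000 bp or more and 4.7 for regions over 20 and up to 100 bp wide. For WT liver with GW4064 no such fold was available, so that width and coverage below do not say how large a gain was.

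The gained sequence lay mostly in genes. Of the gained bases, 58.3% fell in the bodies of protein-coding genes, which take up 37.9% of the same chromosomes, and 71.8% fell within 10 kb of such a gene, against 47.3%. The share in gene bodies was 46.8% for regions over 100 and up to 500 bp wide, 68.4% for those of at least 1000 and under 5000 bp and 78.9% for the 100 regions of 5000 bp or more. Stretches within 1 kb of a start site held 10.6% of the gained bases and 2.12% of the chromosomes. Among regions of 5000 bp or more, 47.9% came within 1 kb of a start site, against 2.67% of the regions over 100 and up to 500 bp wide. Chromosome 18 is left out of these start-site shares.

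Gained bases were also gathered in few places. Of 27232 windows of 100 kb, 20813 held at least 1 region, with a median of 0.441 kb gained in each. The top 1% of windows held 17.1% of all gained bases. The richest lay on chromosome 1 at the end of the Ugt1a cluster and Mroh2a, with 61.5 kb gained. Of that window, 83055 bp lie in stretches where the series' FXR, Foxa2, LXR and PPAR lists all have peaks, whichever the treatment, and the part of this overlap in the result was not tested. Such stretches numbered 102 in the genome and met 14 of the 60528 regions. Next came Osgin1 on chromosome 8 with 39 kb, Fmo5 on chromosome 3 with 35.4 kb, Rapgef4 on chromosome 2 with 34.6 kb and Trf on chromosome 9 with 33.2 kb. The windows of Cyp3a25 and Cyp3a11 on chromosome 5 had 31.8 kb and 29.4 kb, and Cps1 on chromosome 1 had 30.7 kb.

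Of the 10 widest single regions, those on Mroh2a, Osgin1 and Trf lay in the windows just named. The widest, of 21303 bp, covered the front of Apob (chr12:7975387-7996689), the apolipoprotein of VLDL. A region of 18743 bp covered most of Trf, the gene of transferrin. One of 14784 bp held the last part of Osgin1 and ran on into Necab2, and one of 14577 bp held all of Tsku, which encodes a secreted protein made by the liver. Regions of 12948 bp and 11961 bp lay on Ass1 (urea cycle) and Alas1 (first enzyme of haem synthesis). One of 11842 bp covered a run of small genes from Wdr24 to Rhot2. The 3 others among the 10 widest lay on Mroh2a and 1600014C10Rik, inside stretches with peaks of all 4 antibodies. By entry order, Cyp3a11 or Cyp3a25 was overlapped by 8 of the first 10 entries, Osgin1 by the sixth and Gstm3 by the seventh.

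Counted by gene, 9587 of 21887 protein-coding genes (43.8%) had at least 1 gained base, but few were covered at length. At least 25% of the body was covered in 424 genes (1.94%), at least 50% in 149 and all of it in 34. These 424 genes held 7.84% of the gained bases, had a median length of 5.11 kb and were met by a median of 1 region. Short genes reach the threshold with 1 region: 5.55% of genes of 2 to 5 kb passed, against 0.831% of genes of 10 kb or more. The 116 covered genes of 10 kb or more were met by a median of 3 regions. Of the 424 genes, 109 (25.7%) had a neighbouring gene that was also covered.

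Genes of liver functions were covered more often than protein-coding genes as a whole. Of 622 genes in 29 lists of liver functions and general cell functions, 58 (9.32%) were at least 25% covered, against 1.94% of all protein-coding genes. Among 105 markers of Kupffer cells, sinusoidal endothelial cells, stellate cells, cholangiocytes, lymphocytes and red blood cells and genes of other tissues, 0 were. That is near the 1.94% of all protein-coding genes, and the highest, the endothelial gene Egfl7, had 10.8%. A gained base was present in 29 of these 105 genes (27.6%), against 43.8% of all protein-coding genes, and in 9 of 13 sinusoidal endothelial markers. It was present in 4 of 14 stellate cell markers, 4 of 12 cholangiocyte markers and 1 of 14 Kupffer cell markers. Among defining markers, Adgre1, Clec4f, Lyve1, Lrat, Krt19, Epcam, Cd3e and Hbb-bs were at 0. Of 15 hepatocyte markers, 5 were at least 25% covered: Trf (99%), Alb (83.6%), Apob (65.7%), Cps1 (43.4%) and Ass1 (25.6%). Others had none, among them Ttr, Apoa1, Pck1 and Cyp2e1. The lists were drawn up with earlier results of these data known.

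**Figure D2:**
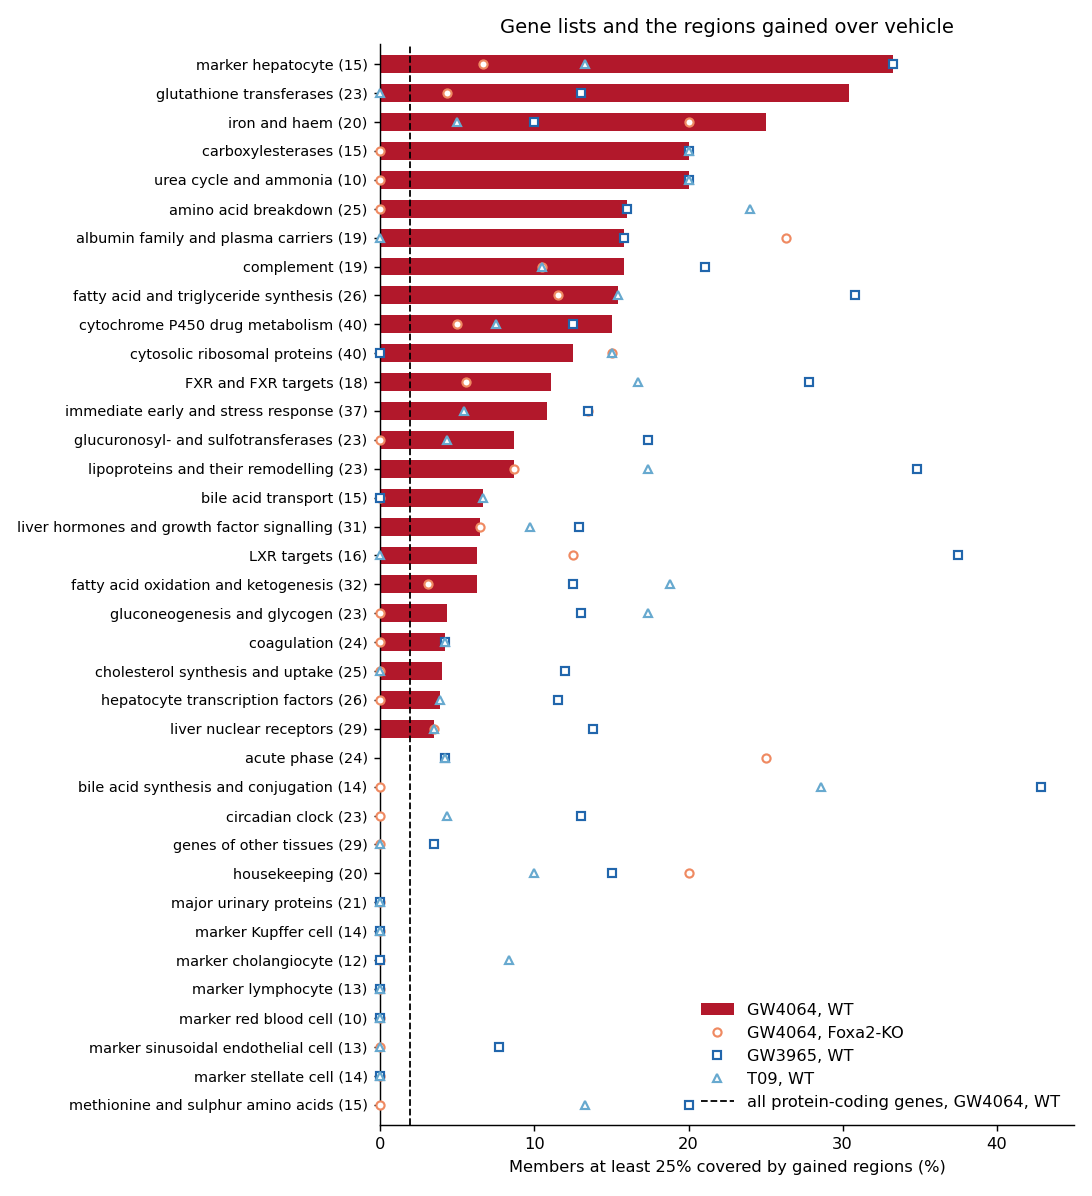
Share of the members of each gene list (number of members in brackets) with at least 25% of the gene body inside gained regions; bars show WT liver with GW4064, open symbols the 3 other lists of regions, and the dashed line 1.94%, the share among all protein-coding genes in WT liver with GW4064. Hepatocyte markers and glutathione transferases reach 33.3% and 30.4%. The 6 lists of other liver and blood cell types and the genes of other tissues are at 0, which is near the 1.94% of all genes.

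FXR targets were covered unevenly. Of 18 members of the list of FXR and its targets, 2 were at least 25% covered (11.1%). Osgin1, an oxidative stress response gene, had 96.9% of its 20.4 kb covered by 3 regions, and 3 FXR peaks lay in or within 10 kb of it. Sqstm1, an autophagy receptor, had 66.8% of 10.7 kb covered, with 2 FXR peaks. Abcb11, the bile salt export pump, had 21.8% of its 104 kb covered by 58 regions, so that 22.8 kb of it was gained. Sdc1, a heparan sulphate proteoglycan, had 19.1% and Scarb1, the HDL receptor, had 17.7%. Ppara (2.79%), Nr5a2 (2.66%), Pltp (2.09%), Klb (0.659%) and the FXR gene itself, Nr1h4 (0.145%), had little.

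The other 8 members had no gained base in their body. They were Nr0b2, the repressor SHP, Slc51b, which forms the basolateral exporter of bile acids with Slc51a, the bile acid synthesis genes Cyp7a1 and Cyp8b1, the FGF receptor Fgfr4, the apolipoproteins Apoc2 and Apoc3, and Fetub. Near 2 of them FXR peaks and gained regions lay close by. Nr0b2 had an FXR peak 0.227 kb before its body. A gained region of 1504 bp lay 0.341 kb past its end and itself held another FXR peak. Slc51b had an FXR peak 0.061 kb and a gained region 1.55 kb away. Both promoter windows (Nr0b2 chr4:133553126-133553425, Slc51b chr9:65422724-65423023) met an FXR peak and no gained region.

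Among 15 genes of bile acid transport, Abcc2, a canalicular exporter of conjugates, was at least 25% covered (25.6%), and 14 had a gained base. Long genes meet a region more easily, and 82.8% of all protein-coding genes of 50 kb or more had a gained base. Abcg8, which exports sterols into bile with Abcg5, had 15.2%, Abcc3, a basolateral exporter, 13.4%, and Slc10a1, the sodium-dependent uptake carrier, 12.0%. Of 14 synthesis and conjugation genes, 0 reached 25% and 8 had a gained base. At 25% both lists were near the 1.94% of all genes. Acox2 (21.7%) and Slc27a5 (18.5%), of side-chain shortening and conjugation, were highest.

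Genes of drug metabolism were covered at length. Of 40 genes of cytochrome P450 drug metabolism, 6 were at least 25% covered (15.0%). Cyp3a11, the main mouse relative of human CYP3A4, had 90.9% of 25.2 kb covered by 8 regions, and Cyp3a25 had 78.9% of 32.5 kb covered by 16. Their neighbour Cyp3a59 had 12.1%, and the other 4 of 7 Cyp3a genes had less than 1% or none. Neither Cyp3a11 nor Cyp3a25 had an FXR peak in or within 10 kb of it, whereas Foxa2 peaks numbered 2 and 1. Among 15 Cyp2c genes, Cyp2c29 had 60.8% of 43.7 kb covered by 29 regions, with 3 FXR peaks in or within 10 kb of it, and Cyp2c55 came next with 13.7%. The electron donor Cyb5a had 38.1%, Cyp2f2 34.9%, Cyp2d10 32.0% and the P450 reductase Por 22.9% of 65.3 kb. Cyp2e1 and Cyp1a2, both highly expressed in pericentral hepatocytes, had no gained base.

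Glutathione transferases of the mu class were covered as a cluster. Of 23 genes of glutathione metabolism, 7 were at least 25% covered (30.4%), and 6 of them were Gstm genes. The 7 Gstm genes lie side by side on chromosome 3. Gstm1 had 95.3% covered, Gstm3 69.5%, Gstm2 50.7%, Gstm6 42.4%, Gstm7 40.8% and Gstm4 34.8%, and Gstm5 had none. Between Gstm2 and Gstm3, 4600 bp from Gstm3, a gained region of 1292 bp held the FXR peak of the cluster. That peak was very narrow, from 43.450 to 43.464 kb from the annotated Gstm1 start. Gsta3, of the alpha class, had 67.1% of 25 kb covered. Ephx1, the microsomal epoxide hydrolase, had 56.6% of 28 kb and Fmo5, a flavin monooxygenase, 61.7% of 45.4 kb. Neither belongs to a list, and they were named after their values were seen.

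Conjugation and ester hydrolysis were reached in part. In the Ugt1a locus, whose 9 genes share their last exons, Ugt1a1, which conjugates bilirubin, had 83.1% and Ugt1a2 42.7% covered. All 9 overlap a stretch with peaks of all 4 antibodies, and their coverage is not independent. Of 10 Ugt2 genes, 0 reached 25%, which is near the 1.94% of all genes. Among carboxylesterases, 3 of 15 did: Ces2a (35.6%), Ces1c (35.4%) and Ces1f (28.2%).

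**Figure D3:**
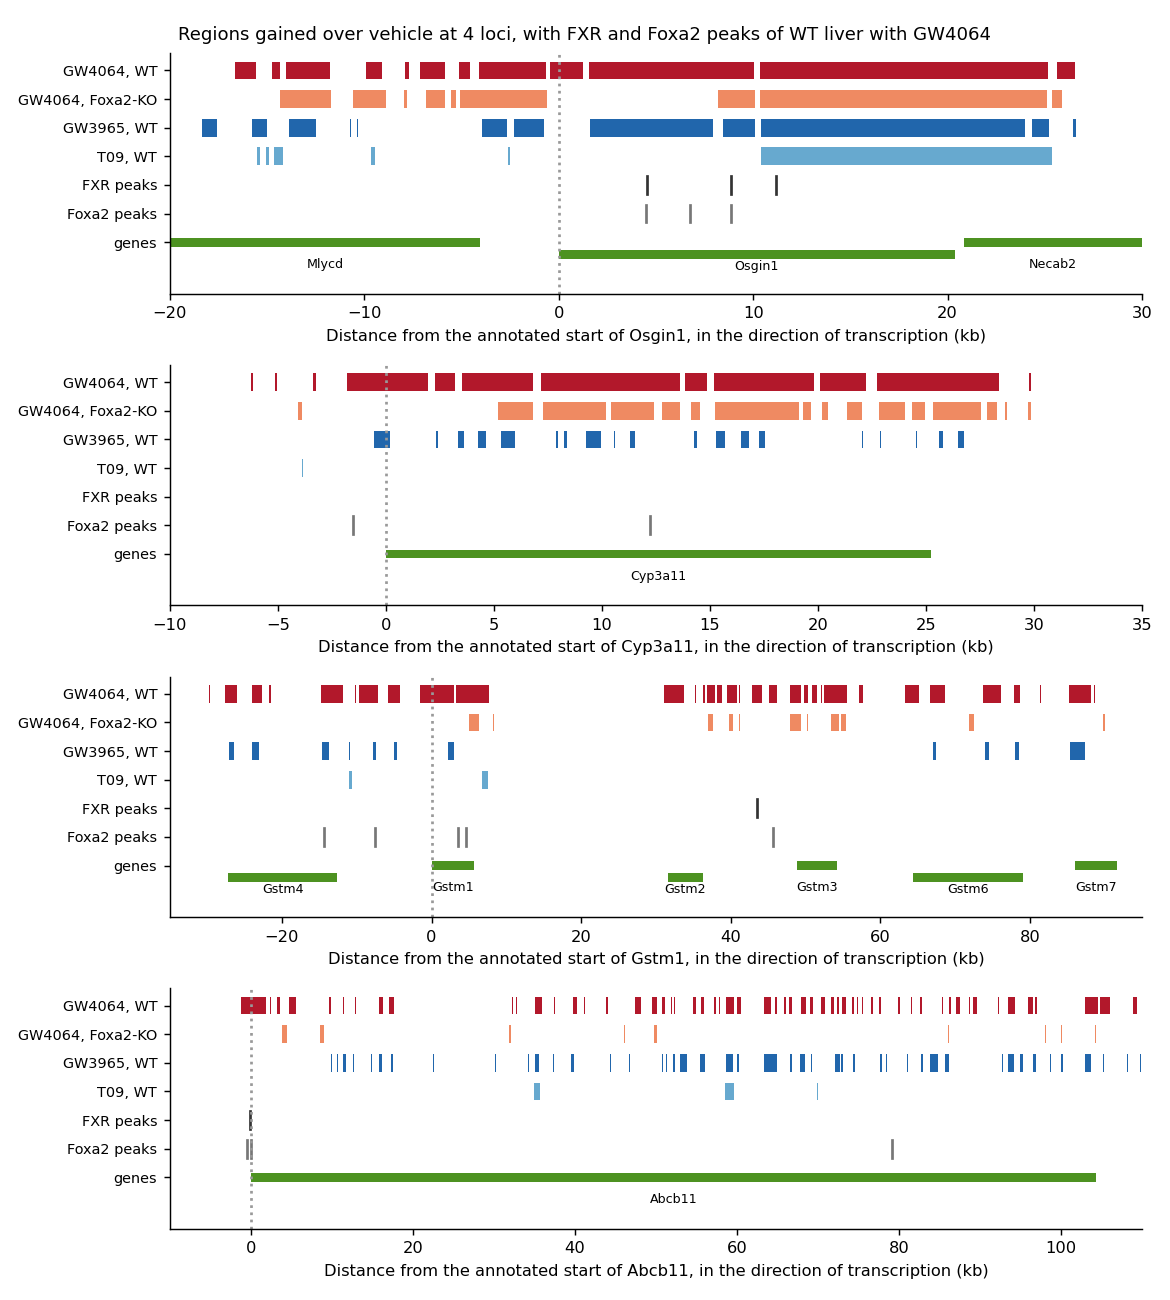
Regions gained over vehicle (coloured bars, 1 row per list), FXR and Foxa2 peaks of WT liver with GW4064 (ticks at peak centres) and protein-coding genes (green) around Osgin1, Cyp3a11, the Gstm cluster and Abcb11, in kb from the annotated gene start. Regions of WT liver with GW4064 cover 96.9% of Osgin1 and 90.9% of Cyp3a11, and they split into 58 pieces along Abcb11.

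Among lipid genes, Apob had 65.7% of 39.2 kb covered by 6 regions and Angptl8, an inhibitor of lipoprotein lipase, 39.9%. The other 21 of 23 lipoprotein genes were below 25%, and 13 had no gained base. Of 26 genes of fatty acid and triglyceride synthesis, 4 were at least 25% covered: Thrsp (91.5%), a lipogenic regulator, Srebf1 (48.5%), the master regulator of lipogenesis, Slc25a1 (45.6%), the citrate carrier, and Insig2 (41.2%), which retains SREBPs. Of 32 genes of fatty acid oxidation, 2 were: Acaa1b (36.0%), a peroxisomal thiolase, and Fabp1 (30.3%). Of 16 LXR targets only Srebf1 passed, and Abca1 had 5.51%.

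Amino acid and nitrogen metabolism followed. Of 25 genes of amino acid breakdown, 4 were at least 25% covered (16.0%): Sds (82.1%) and Sdsl (46.6%), of serine breakdown, Ftcd (76.8%), of histidine breakdown, and Agxt (45.3%), which removes glyoxylate. Cps1, the first enzyme of the urea cycle, had 43.4% of its 109 kb covered by 25 regions, 47.2 kb in all. Ass1 had 25.6%. Sds was also the single member of the 23 gluconeogenesis and glycogen genes above 25%, and Pck1 and G6pc had no gained base. Of 15 genes of methionine metabolism, 0 passed, which is near the 1.94% of all genes.

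Plasma proteins were covered gene by gene. Trf, Alb and Ambp (63.6%) passed, 3 of 19 carriers. Of 19 complement genes, 3 passed: C8g (100%), Mbl1 (32.7%) and Cfb (29.3%). Serpinc1, the gene of antithrombin, had 26.2% and was the single one of 24 coagulation genes above 25%. Of 24 acute phase genes, 0 passed, which is near the 1.94% of all genes. A gained base was present in 3 of them, Il6ra (5.69%), Stat3 (4.98%) and Il1r1 (0.895%). Of 21 major urinary protein genes 0 passed, also near the 1.94% of all genes, with a base in Mup20 alone. Most genes of both lists are short, and 16.3% of all genes of 2 to 5 kb had a gained base. Of 20 iron and haem genes, 5 passed: Trf, Alas1 (74.1% of 14.5 kb), Alad (35.4%), the second enzyme of haem synthesis, Hfe (35.2%) and Fth1 (25.6%).

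Regulators and general genes gave a mixed picture. Rxrb had 75.1% covered and was the single one of 29 listed liver nuclear receptor genes above 25%, while Nr1i2 (PXR), Rxra and Hnf4a had 17.5%, 16.7% and 16.6%. Of 37 immediate early and stress genes, 4 passed: Gadd45b (44.3%), the chaperone genes Hspa5 (36.1%) and Hspa8 (32.1%), and Xbp1 (33.9%), a regulator of the unfolded protein response. Of 40 cytosolic ribosomal protein genes, 5 passed, with Rps9 highest at 49.4%, and 31 had no gained base. Of 20 housekeeping genes and 23 clock genes, 0 passed, which is also near the share of all genes. The glucagon receptor gene Gcgr had 25.2%.

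Outside the lists, the most covered genes of 2 kb or more were mostly short genes in gene-dense stretches. Of the 20 highest, 16 were covered in full and 19 were met by 1 region. They included genes close together on chromosome 17 (Jmjd8, Stub1 and Rhbdl1), on chromosome 7 (Chmp2a, Ube2m and Zbtb45) and on chromosome 9 (Mst1, a hepatocyte growth factor relative, and Gmppb). By symbol, 15 of 1110 olfactory receptor genes (1.35%) and 0 of 353 vomeronasal receptor genes were at least 25% covered, and their median lengths are 0.95 kb and 0.96 kb. Values around the threshold ran without a gap, with Cic and Prr7 just inside at 25% and Cfap20, Usf1 and Tapbp just outside at 24.9% to just under 25%.

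**Figure D4:**
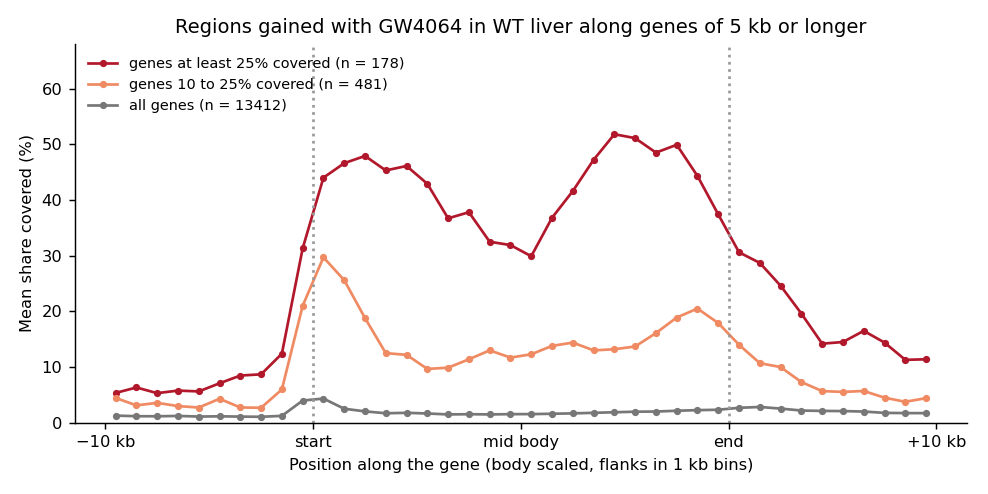
Mean share of sequence covered by regions gained with GW4064 in WT liver along genes of 5 kb or more with a single annotated strand; bodies are scaled to 20 bins and flanks run in 1 kb bins over 10 kb. In the 178 genes at least 25% covered, chosen by this coverage, the mean is 44% in the first bin of the body, 29.9% in the middle and 51.8% at 72.5% of its length.

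Along genes, coverage was highest near the start and again towards the end. Over all 13412 genes of 5 kb or more with a single strand, the mean share covered was 3.99% in the 1 kb before the start and 4.35% in the first of 20 bins of the body. It was 1.5% at its lowest in the body, 2.34% in the last bin and 2.84% between 1 and 2 kb past the end. It did not return to the level of the far upstream flank, 1.29%, within 10 kb downstream, where it was 1.73%. In the 481 genes that were 10 to 25% covered, chosen by this coverage, the body also had 2 high ends. The mean was 29.7% in the first bin, 9.67% at its lowest and 20.5% near the end. Past the end their mean fell to 14% in the first 1 kb and to 4.42% in the last, against 4.46% in the far upstream flank. The genes were chosen by coverage of the body, so this fall cannot show a difference from all genes. In the 178 genes at least 25% covered, chosen likewise, the mean was 11.4% in the last 1 kb downstream and 5.36% far upstream.

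miRNA genes were reached as well. Of 1005 RefSeq miRNA hairpins, 40 (3.98%) lay wholly inside a gained region, which is not above the 4.47% of promoter windows. The mature sequences below are those of hairpins with known roles in liver or growth, with the seed (bases 2 to 8) in capitals. They are written 5′ to 3′ as RNA and were chosen after the hits were seen.

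let-7b-5p: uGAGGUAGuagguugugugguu
let-7c-5p: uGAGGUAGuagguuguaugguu
miR-148a-3p: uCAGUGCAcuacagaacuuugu
miR-802-5p: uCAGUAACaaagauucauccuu
miR-93-5p: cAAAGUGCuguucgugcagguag
miR-106b-5p: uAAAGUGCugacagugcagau
miR-25-3p: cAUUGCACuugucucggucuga

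let-7b and let-7c share the seed GAGGUAG, and both hairpins lay in 1 region of 9614 bp on chromosome 15 (chr15:85701524-85711137) that overlaps no protein-coding gene and ends 23773 bp from Ppara. miR-148a, abundant in hepatocytes, lay in a region of 4352 bp (chr6:51268687-51273038). miR-802 lay in one of 809 bp on chromosome 16. miR-93 and miR-106b share the seed AAAGUGC and lay with miR-25 in 1 region of 811 bp on chromosome 5, in the cluster known to sit in an intron of Mcm7. None of these 7 hairpins was met by the 3 other lists, which was also so for most of the 40 hairpins.

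FXR and Foxa2 binding sites met few of the regions. FXR peaks were called by the authors in WT liver with GW4064 and with vehicle, 22705 and 7883 peaks, and Foxa2 peaks likewise, 22666 and 7306 peaks. With GW4064, 349 FXR peaks (1.54%, 95% Wilson interval 1.39% to 1.71%) met a gained region by at least 1 bp. So did 1323 Foxa2 peaks (5.84%, 5.54% to 6.15%). The shares were not lower with vehicle, at 2.07% of FXR peaks and 8.06% of Foxa2 peaks. The gained regions cover 0.762% of the chromosomes, and an overlap of 1 bp is met more easily than that. Of the first 500 FXR peaks in the GW4064 file, 96 (19.2%, 16.0% to 22.9%) met a gained region, and 77 (15.4%) in the vehicle file. Seen from the regions, 339 (0.56%) held an FXR peak of the GW4064 list and 1238 (2.05%) a Foxa2 peak of it, and 76 held both. Regions with an FXR peak had a median width of 1185 bp, against 150 bp for those without. The share with an FXR peak was 15.0% among regions of 5000 bp or more, 3.81% among those of at least 1000 and under 5000 bp and 0.232% among those over 100 and up to 500 bp, and the share with a Foxa2 peak was 37.0%, 16.8% and 0.437%. A wider region can meet a peak more easily. Outside stretches with peaks of all 4 antibodies, the widest regions with an FXR peak lay at Osgin1, Tsku, Crip2 and Glyctk.

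Counted by gene over body and 10 kb on each side, an FXR peak was present at 37.1% of the 116 covered genes of 10 kb or more, against 38.6% of all genes of that length. For Foxa2 the shares were 75% and 48.6%. In the vehicle lists the same genes had an FXR peak in 19.8% against 17.6% and a Foxa2 peak in 50.0% against 23.6%. The covered genes had a median length of 16.3 kb, against 33.1 kb for all genes of 10 kb or more. A longer gene can meet a peak more easily, and the shares were not matched for length.

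The base overlap with the other lists was small but above the share of the chromosomes that those lists cover. Of the bases gained with GW4064 in WT liver, 8.07% were also gained in Foxa2-KO liver with GW4064, 11.2% with GW3965 and 6.66% with T09, lists that cover 0.711%, 0.744% and 0.54% of the chromosomes. As a share of those lists' own bases, the overlap was 8.65%, 11.5% and 9.4%. Each list has vehicle samples of its own. Among the first 500 regions of WT liver with GW4064, 28.8% met a region of Foxa2-KO liver, 39.0% one of GW3965 and 19.8% one of T09. Among the last 5000 regions 4.06%, 3.6% and 3.26% did. Early entries are wider, and a wider region can meet another more easily. As shares of bases the values were 25.1%, 29.1% and 18.5% for the first 500 and 5.17%, 7.18% and 3.53% for the last 5000.

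At 25% coverage the 3 other lists had 364 genes in Foxa2-KO liver (1.66%), 495 with GW3965 (2.26%) and 337 with T09 (1.54%). Of the 424 genes of WT liver with GW4064, 79 (18.6%) were among the first, 107 (25.2%) among the second and 56 (13.2%) among the third, or 21.7%, 21.6% and 16.6% of those lists. No other list covered 219 (51.7%) of them to that extent. All 4 lists covered 2, Osgin1 and Mroh2a, and Mroh2a lies in a stretch with peaks of all 4 antibodies.

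Side by side, the members differed in where else they were covered. Cyp3a11 was 90.9% covered with GW4064 in WT liver, 58.3% in Foxa2-KO liver, 17.1% with GW3965 and 0% with T09, and Cyp3a25 had 78.9%, 64.0%, 9.33% and 0%. Trf (99%, 72.6%, 0% and 0%) and Ambp (63.6%, 62.1%, 0% and 0%) were likewise covered in both GW4064 lists and in neither LXR agonist list. Alb (83.6%, 0%, 86.5% and 0%), Gsta3 (67.1%, 0%, 92.4% and 0%) and Apob (65.7%, 13.8%, 91.7% and 0%) had their second high value with GW3965. Alas1 had 74.1% with GW4064 in WT liver, 0% in Foxa2-KO liver, 75.4% with GW3965 and 88.4% with T09. Sds and Ass1 had 82.1% and 25.6% in WT liver with GW4064, none in Foxa2-KO liver or with GW3965, and 100% and 98.8% with T09. Gstm2 (50.7%), Agxt (45.3%), Hspa5 (36.1%), Xbp1 (33.9%) and Fth1 (25.6%) had less than 0.1% in each of the 3 other lists. With 1 list per condition and 2 or 3 livers behind each arm, none of these differences could be tested.

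**Figure D5:**
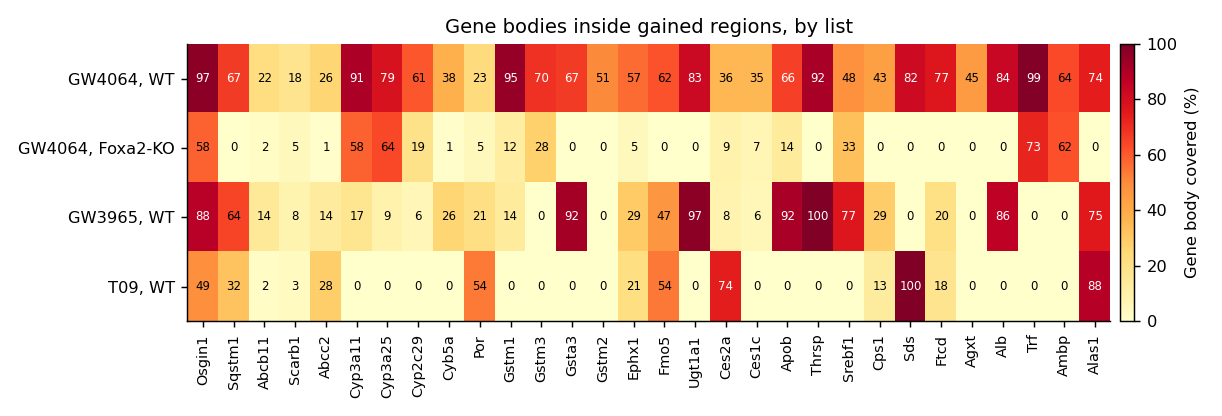
Percent of the gene body inside gained regions for a choice of named genes (columns) in the 4 lists (rows), with the value in each cell and the colour scale from 0 to 100%. Osgin1 is high in all 4 rows, Cyp3a11, Cyp3a25, Trf and Ambp in the upper 2, and Alb, Apob and Gsta3 in the GW4064 and GW3965 rows of WT liver.

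In the authors' deposited table for Foxa2-KO liver, the regions that share most bases with the first 5 entries of WT liver, all at Cyp3a11 or Cyp3a25, were its entries 21, 17, 7, 19 and 1. In the same authors' deposited table their folds over vehicle were 1.88, 1.86, 2.35, 1.93 and 3.26. The region that matches the Osgin1 entry had a fold of 1.24 in that table. The authors' deposited table for GW3965 gave it 1.29, and the authors' deposited table for T09 gave it 1.13. For the first 5 entries, the folds in the authors' deposited table for GW3965 were 3.3, 2.96, 2.28, 1.9 and 3.88. Those GW3965 regions shared only 287, 430, 223, 707 and 70 bp with the entries. The matching Foxa2-KO regions shared 2236, 3864, 4621, 2949 and 2907 bp.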

How the data were processed

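ATAC-seq libraries of mouse liver were compared as ligand against vehicle. Per the labels' series text, peaks were called with PeakSeq for ATAC against vehicle and for ChIP against input. The submitters' processing notes name mm10, BWA, STAR, RSEM and edgeR, with versions and roles not given in the sources used here. The authors' deposited list for WT liver with GW4064 holds positions only, and their other ATAC lists add a fold (a ratio) and a q-value (an adjusted p-value) per region. Read counts, and so the depth per sample, are not given in these lists. Replicates were pooled in each list.

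Starts were moved to a count from 1. Coverage of a gene is the share of its RefSeq body (GRCm38.p6 table) inside the regions, for 21887 protein-coding genes on the assembled chromosomes. Overlaps needed 1 bp. Strand and start sites came from RefSeq promoter windows, which hold no chromosome 18. Coverage code was tested on simulated regions at 200 genes. Of 731 genes listed, 727 matched RefSeq symbols. Members and lists were chosen with earlier results of these data known. Named were, by rule, up to 4 members of each list with the highest coverage and others at 0 where their role needs it, every FXR target, genes at the 10 widest regions and first 10 entries, and the 20 most covered genes of at least 2000 bp outside the lists. Further members of a list, and genes of a family beside them, were named after their values were seen. The tools were matplotlib 3.10.9, scipy 1.17.1, pandas 2.3.3, numpy 2.4.6 and Python 3.11.15. No test across samples was possible. Some items are not reported here.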

Additional observations from a re-analysis of the deposited data

How the results depend on the processing

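No paired analysis was possible because the deposited list pools the 3 GW4064 and 3 vehicle livers and gives no value per sample, and for the same reason no replicate could be left out. Counts rest on the threshold and shares on the width of the regions. Keeping regions of at least 1000 bp left 4699 regions, with 69.2% of their bases in gene bodies. Their shares of bases also gained were 11.2% in Foxa2-KO liver, 16.3% with GW3965 and 8.34% with T09, where both lists were so limited. With gene bodies extended by 10 kb, 71.8% of gained bases were inside. At least 10% coverage was met by 1172 genes and at least 50% by 149, against 424 at 25%. Requiring 50% of an FXR peak gave 1.36% inside gained regions, and the first 500 entries gave 19.2% for FXR and 9.4% for Foxa2. Joining regions less than 1000 bp apart gave 6.95% shared with T09. The other alternatives stayed within 1.5 times the count or within the 95% interval of the share. Among them were 348 genes with regions of at least 1000 bp and 354 among genes of at least 2000 bp. The interval takes the peaks of a pooled list, or the regions for shares of bases, as separate. It holds nothing of the spread between livers. Leaving out regions in stretches with peaks of all 4 antibodies, an alternative chosen after seeing the data, gave 419 genes. Depth is unknown, and losses of accessibility were not analysed here.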

Other observations

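Several long gene bodies outside the lists took up much gained sequence without reaching 25% coverage, unlike Ptprf, a receptor phosphatase that had 26.4 kb (31.7%). Rapgef4, an exchange factor for Rap that responds to cAMP, had 50.9 kb gained over its 276 kb, more than any other protein-coding gene. Prkag2, a regulatory subunit of AMP kinase, had 37.9 kb and Vps13d, a lipid transfer protein, 36.1 kb. Svil, an actin-binding protein, also had 36.1 kb. Rapgef4 had 18.4% of its body covered with GW4064 in WT liver, 3.68% in Foxa2-KO liver, 0.443% with GW3965 and 26.4% with T09. The gene-free window at the start of chromosome 3 held 24.5 kb of gained regions, among them one of 9132 bp (chr3:3021361-3030492).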
